A study of Homo sapiens with 2 samples.

Results

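The genes described here encode the machinery of oxidative phosphorylation in MCF10A, an immortalised, non-tumorigenic breast epithelial cell line. They were taken by symbol alone: complex I subunits and related genes (NDUFA, NDUFB, NDUFC, NDUFS, NDUFV), succinate dehydrogenase (SDHA, SDHB, SDHC, SDHD), UQCR, COX4 to COX8, ATP5, and the mitochondrial-encoded MT-ND, MT-CO, MT-CYB and MT-ATP genes. The rule itself uses no measured value. Of 110 matching symbols, 109 were counted in both libraries, among 16387 genes common to them. ATP5MF-PTCD1, a readthrough transcript, was listed in library 1 alone. The 109 genes comprised 80 nuclear-encoded subunits, 13 mitochondrial-encoded subunits, 10 assembly factors or regulators, and 6 paralogues, antisense, readthrough or related genes.

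Cells were stimulated with EGF, an inhibitor was added 15 h later to some cultures, and transcripts of single cells were counted with unique molecular identifiers (UMIs). The 8 conditions were MEK inhibitor, PI3K inhibitor and EGF alone at 20 h, the same 3 conditions at 30 h, EGF at 15 h, and unstimulated cells without EGF at 0 h. The inhibitor cultures had received EGF like the cultures with EGF alone, and the labels used here name neither inhibitor nor dose. All conditions of a biological replicate were marked with sample tags and pooled, so each of the 2 libraries is 1 replicate and n = 2 for every condition.

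The respiratory chain passes electrons from NADH through complex I, or from succinate through complex II, to complex III, cytochrome c and complex IV, and complex V uses the proton gradient so made to synthesise ATP. Most subunits are encoded in the nucleus and imported, while mitochondrial DNA encodes a few hydrophobic subunits of complexes I, III, IV and V and none of complex II. Proliferating epithelial cells use respiration for ATP and also to recycle NADH and supply aspartate for biosynthesis.

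Counts were summed per library and condition, which gave sums of 213216 to 8508948 UMIs from 29 to 616 cells. Levels are in CPM, counts scaled to a common total with TMM factors, so every value is a share of the RNA counted and not an amount per cell. A gene is called higher or lower where the Benjamini-Hochberg adjusted p of edgeR's quasi-likelihood test over 11147 genes was under 0.05. Library 2 held more cells with 8 to 10% mitochondrial-encoded UMIs, between 6.35% and 48.3% of a condition, against 1.81% to 16% in library 1, and its unstimulated sum rests on 29 cells. All 10 epithelial markers (KRT5, KRT14, CDH1 and others) were above 0 in each sum. Of 11 markers of blood, endothelial, stromal and muscle cells, 5 were in the tables, with summed levels of 9.92 to 120 CPM per sum. PTPRC, CD3E, MS4A1, HBB, VWF and COL3A1 were not among the genes counted in both libraries.

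With the MEK inhibitor at 30 h, nuclear-encoded subunits of each complex were higher than with EGF alone. Of 77 tested subunits 58 rose and 0 fell, with a median log2 fold change of 0.36, while 18.9% of all tested genes were called higher, 19.0% lower, and the median of all was 0.01. By complex, 23 of 37 complex I subunits, 3 of 4 of complex II, 7 of 8 of complex III, 10 of 11 of complex IV and 15 of 17 of complex V rose. The subunits are abundant, and among the 1209 genes averaging 100 CPM or more, 34.2% were called higher, against 54 of the 71 subunits above that level. The median was 0.29 in library 1 and 0.42 in library 2, and 69 of the 77 subunits were higher in both libraries, as were 39.9% of all tested genes.

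NDUFB5, an accessory subunit of the membrane arm of complex I, had 230.4 and 197 CPM in libraries 1 and 2 with the MEK inhibitor, against 138 and 115 CPM with EGF alone. Its log2 fold change was 0.76 ± 0.10 (SE), with an adjusted p of 2.31e-08. UQCRB, the ubiquinone-binding protein of complex III, had 1508 and 1203 CPM with the MEK inhibitor and 985.5 and 736.5 CPM with EGF alone (log2 fold change 0.66 ± 0.09, adjusted p = 3.10e-08). For both genes, the lower MEK inhibitor value lay above the higher value with EGF alone. ATP5PO, which connects the catalytic head of ATP synthase to its peripheral stalk, had 444 and 385 CPM against 308 and 249.6 CPM with EGF alone (0.58 ± 0.09, adjusted p = 2.71e-07). NDUFB1 (0.58), NDUFA1 (0.56) and COX6C (0.55) had the next largest log2 rises. COX6C is a subunit of cytochrome c oxidase, and NDUFB1 and NDUFA1 belong to the membrane arm of complex I. Among complex IV subunits that exist in tissue-specific forms, the widely expressed forms COX4I1 (0.41), COX6A1 (0.42), COX6B1 (0.48) and COX7A2 (0.41) rose.

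The subunits that were not called higher were 14 of complex I and 1 each of complexes II, III and IV, with 2 of complex V. The complex I genes NDUFV2, NDUFV3 and NDUFAB1 had log2 fold changes of -0.16, -0.13 and -0.02; NDUFV2 and NDUFAB1 are named here after their values were seen. SDHA (0.26), which carries the FAD of succinate dehydrogenase, and the membrane anchors SDHC (0.36) and SDHD (0.38) rose. The iron-sulfur subunit SDHB changed by 0.17 (adjusted p = 0.193), and its libraries differed in sign, at -0.03 and 0.33.

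**Figure D1:**
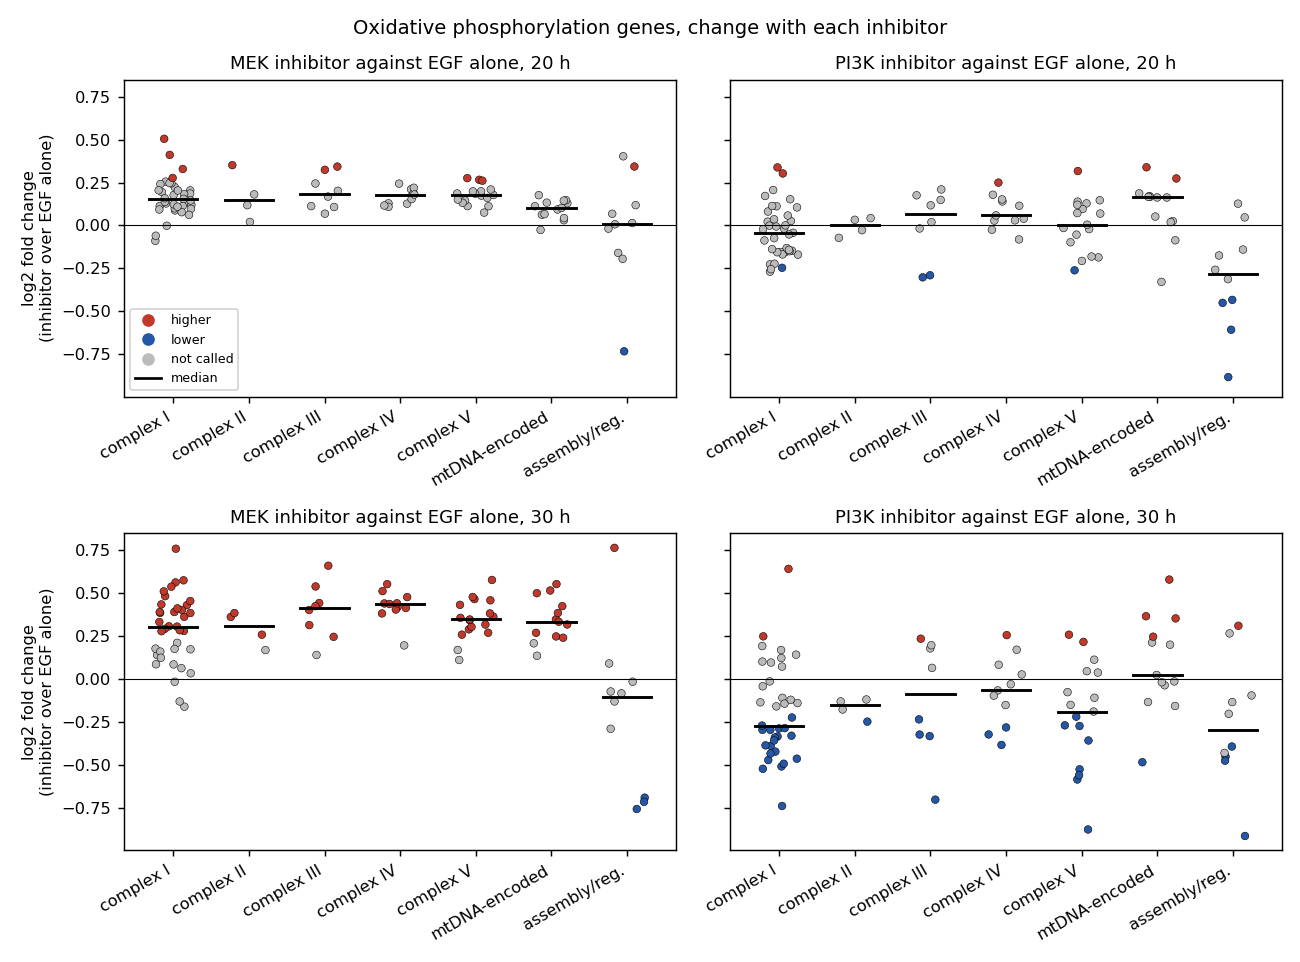
Log2 fold change (inhibitor over EGF alone) of each tested nuclear-encoded subunit by complex, of the 13 mtDNA-encoded genes and of the 10 assembly factors and regulators, in 4 comparisons. Red points were called higher, blue ones lower, grey ones neither, and the line is the median; with the MEK inhibitor at 30 h 58 of 77 nuclear subunits are red and 0 are blue, and with the PI3K inhibitor at 30 h 6 are red and 36 blue.

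With the MEK inhibitor at 30 h nuclear subunits made up 3.90% of all UMIs in library 1 and 3.70% in library 2, and with EGF alone 3.58% and 3.16%. The median cell held 499.5 and 496 nuclear subunit UMIs with the MEK inhibitor and 575 and 481 with EGF alone, so UMIs per cell overlapped between the conditions. The median cell had 12216 and 13506 UMIs in all with the MEK inhibitor and 16000 and 15371 with EGF alone. Markers of the S and G2/M phases, all 10 detected, summed to 1085 and 1729 CPM with the MEK inhibitor and 1418 and 1696 CPM with EGF alone; the part of phase or cell size in the result was not tested. Scaled by library totals in place of TMM, which moved the median of all genes to -0.16, 36 subunits were called higher and 3 lower. Relative to the median of all genes, the median of the subunits was 0.35 under either scaling. Without the library as a block, 8 were called higher and 0 lower.

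**Figure D2:**
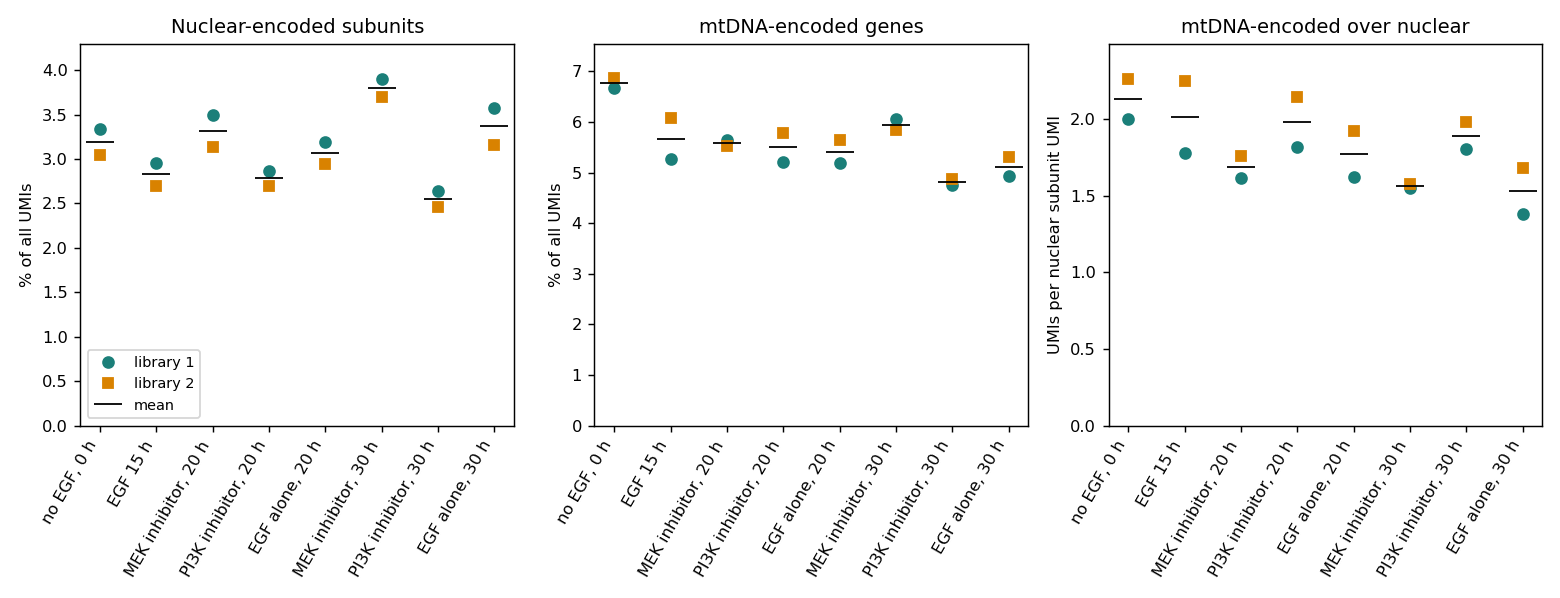
Share of all UMIs taken by nuclear-encoded subunits (left, %), by mtDNA-encoded genes (middle, %) and the ratio of mtDNA-encoded to nuclear subunit UMIs (right) in each of 8 conditions, with 1 point per library and a line at the mean. In the ratio panel, unstimulated cells stand at 2.00 and 2.26, and MEK inhibitor cells at 30 h at 1.55 and 1.58.

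The mitochondrial-encoded subunits were also higher with the MEK inhibitor at 30 h, as a share of the RNA counted. Of the 13 genes 11 rose and 0 fell, with a median log2 fold change of 0.33. Of all tested genes 18.9% were called higher and 19.0% lower, and of those of at least 100 CPM 34.2% were called higher. All 13 were above 0 in both libraries, as were 39.9% of all tested genes. Together the 13 genes took 6.06% and 5.83% of UMIs with the MEK inhibitor and 4.93% and 5.31% with EGF alone. The median cell, however, held 766 and 790.5 of their UMIs with the MEK inhibitor and 778 and 804.5 with EGF alone, slightly fewer in each library. MT-CYB, cytochrome b of complex III, had 6577 and 5310 CPM against 4250 and 3822 CPM with EGF alone (0.55 ± 0.09, adjusted p = 2.12e-06). MT-CO2 (0.52 ± 0.10) and MT-CO1 (0.50 ± 0.09), which carry the copper and heme centres of complex IV, followed. The genes not called were MT-ND2 (0.21, adjusted p = 0.0501) and MT-ATP8 (0.14, adjusted p = 0.387). The median was 0.45 in library 1 and 0.24 in library 2, so library 1 moved more for these genes, while library 2 moved more for the nuclear subunits. Scaled by library totals 5 of the 13 were called higher, and without the block 0 were. The ratio of mitochondrial-encoded to nuclear subunit UMIs was 1.55 and 1.58 in MEK inhibitor cells, against 1.38 and 1.68 in cells with EGF alone. It was thus higher with the MEK inhibitor in library 1 and lower in library 2, and both MEK inhibitor ratios lay between those of EGF alone.

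With the PI3K inhibitor at 30 h the nuclear subunits were divided. Of 77 tested, 36 fell, 6 rose and the median log2 fold change was -0.16, whereas 20.0% of all tested genes were called lower and 19.7% higher. Among genes of at least 100 CPM 33.4% were called lower, against 34 of the 71 subunits above that level. Complex I had 20 of 37 subunits lower and 2 higher, complex II 1 of 4 lower, complex III 4 of 8 lower and 1 higher, complex IV 3 of 11 lower and 1 higher, and complex V 8 of 17 lower and 2 higher. With or without a call, 51 of the 77 subunits were lower in both libraries, as were 38.0% of all genes. Nuclear subunits made up 2.64% and 2.46% of all UMIs with the PI3K inhibitor, against 3.58% and 3.16% with EGF alone. The median cell held 320 and 292.5 nuclear subunit UMIs with the PI3K inhibitor and 575 and 481 with EGF alone.

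The largest fall was that of ATP5MC1, 1 of the nuclear genes for the c subunit that forms the rotating ring of ATP synthase. Its gene lies at chr17:48892765-48895871 on the plus strand (GRCh38). It had 252 and 208 CPM with the PI3K inhibitor and 489.6 and 361 CPM with EGF alone, so the conditions did not overlap (log2 fold change -0.88 ± 0.09, adjusted p = 2.14e-11). ATP5MC3, another c subunit gene, had 744 and 680.1 CPM against 1114 and 941 CPM with EGF alone and fell as well (-0.53 ± 0.09, adjusted p = 1.54e-06). ATP5MC2, whose mature protein is the same as that of the other two genes, had 529 and 435.5 CPM with the PI3K inhibitor, against 459.8 and 350.4 CPM with EGF alone. It was called higher (0.26 ± 0.09, adjusted p = 0.0198), and each library was higher, although the conditions overlap across libraries. The 3 genes differ in the targeting peptide and in the RNA, and with TMM scaling ATP5MC1 and ATP5MC3 were lower, and ATP5MC2 higher, in each library. Under scaling by library totals ATP5MC2 stood at 0.02 and lost its call (adjusted p = 0.828).

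**Figure D3:**
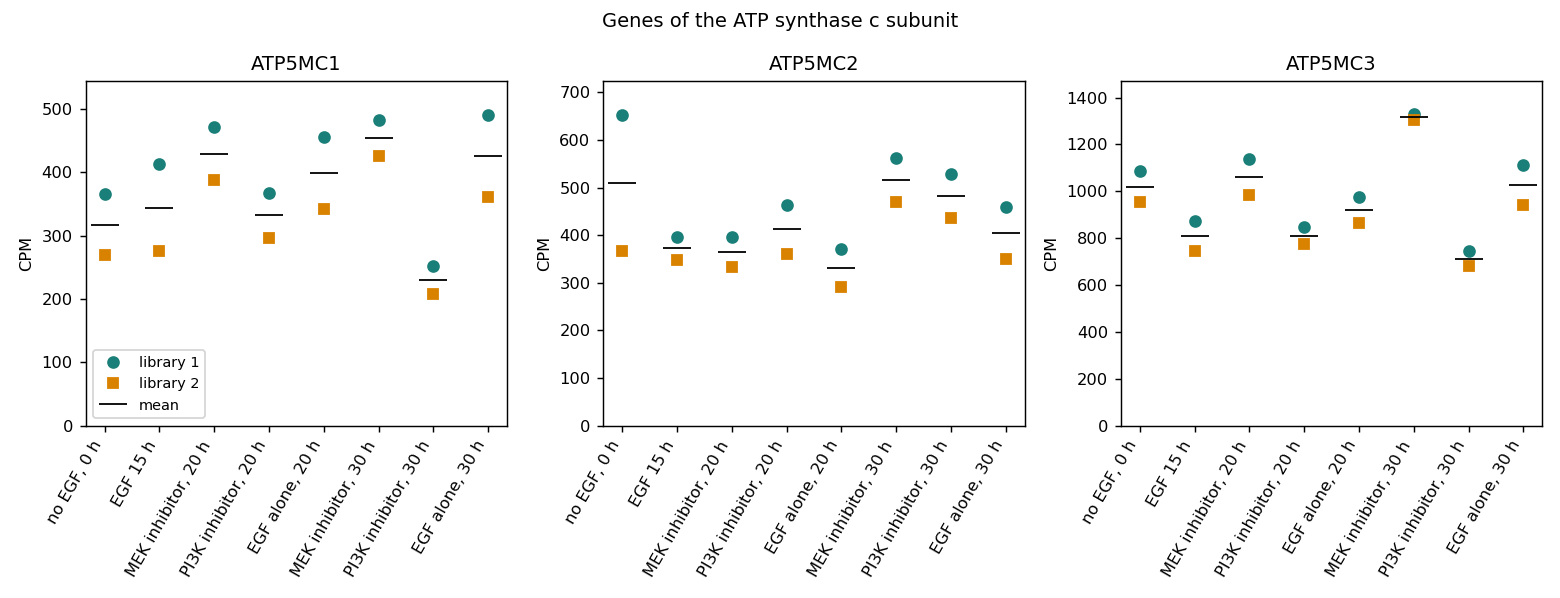
Level in CPM of the 3 genes of the ATP synthase c subunit in each condition, with 1 point per library and a line at the mean. At 30 h ATP5MC1 stands at 252 and 208 CPM with the PI3K inhibitor and at 489.6 and 361 CPM with EGF alone, while ATP5MC2 stands at 529 and 435.5 against 459.8 and 350.4 CPM.

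The promoters of these genes, and those of a subunit that rose with the MEK inhibitor and of another that fell with the PI3K inhibitor, are shown because ATP5MC1 fell and ATP5MC2, which encodes the same mature protein, did not fall under either TMM or library totals. Each is the 250 bases upstream of the RefSeq start on GRCh38.p14, read 5′ to 3′ on the gene's strand. ATP5MC3 is not shown. Capitals mark matches on either strand to the CCAAT box (CCAAT), the CRE (TGACGTCA), the NRF1 motif (GCGCA, any base, GCGC), the ETS motif bound by GABP (CCGGAAG) and the YY1 motif (AAGATGGCG). The CCAAT box and the CRE were added to the search after these promoters had been read.
ATP5MC1 (chr17:48892537-48892786, + strand): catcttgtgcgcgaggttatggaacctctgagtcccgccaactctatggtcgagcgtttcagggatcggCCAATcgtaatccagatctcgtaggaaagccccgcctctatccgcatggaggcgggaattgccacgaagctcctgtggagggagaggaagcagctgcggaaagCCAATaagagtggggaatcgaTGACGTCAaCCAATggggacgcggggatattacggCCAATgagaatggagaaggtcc
ATP5MC2 (chr12:53676084-53676333, - strand): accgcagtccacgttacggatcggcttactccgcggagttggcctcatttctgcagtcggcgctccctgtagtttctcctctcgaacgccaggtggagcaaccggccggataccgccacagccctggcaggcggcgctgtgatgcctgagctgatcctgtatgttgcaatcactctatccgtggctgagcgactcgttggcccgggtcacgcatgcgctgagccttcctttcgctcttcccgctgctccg
ATP5PO (chr21:33915805-33916054, - strand): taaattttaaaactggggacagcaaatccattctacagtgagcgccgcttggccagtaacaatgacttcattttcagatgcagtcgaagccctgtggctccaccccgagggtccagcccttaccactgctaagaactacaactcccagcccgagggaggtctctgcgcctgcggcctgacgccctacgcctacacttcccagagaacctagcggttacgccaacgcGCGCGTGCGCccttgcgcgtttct
ATP5PF (chr21:25735055-25735304, - strand): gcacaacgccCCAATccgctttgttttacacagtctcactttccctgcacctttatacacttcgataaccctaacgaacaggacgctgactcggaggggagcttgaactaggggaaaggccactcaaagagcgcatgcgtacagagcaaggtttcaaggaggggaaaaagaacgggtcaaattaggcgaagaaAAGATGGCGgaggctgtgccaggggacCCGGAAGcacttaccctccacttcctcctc

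The ATP5MC1 window held 4 CCAAT boxes and 1 CRE, and the ATP5MC2 window held none of the 5 motifs. Only 1 RefSeq start per gene was used, and windows upstream of other starts were not searched. The ATP5MC2 gene is annotated at chr12:53632726-53677408 on the minus strand, so its window lies inside the gene. The ATP5PF window lies inside its gene too (chr21:25716503-25735673), and also inside GABPA on the other strand (chr21:25734570-25772460). The ATP5PO window lies partly inside its gene (chr21:33903453-33915980), and the end of the ATP5MC1 window overlaps its gene. Of the windows that are not printed, that of NDUFA1 lies inside its gene, and those of NDUFB1 and NDUFS6 overlap theirs. The ATP5PO window held 1 NRF1 motif. That of ATP5PF, a peripheral stalk subunit, held 1 ETS motif, 1 YY1 motif and 1 CCAAT box. NDUFS6 and UQCR10 fell more than ATP5PF with the PI3K inhibitor at 30 h, but their windows are not printed. The NDUFS6 window held none of the 5 motifs, and the UQCR10 window held 1 CCAAT box. Among other genes that rose with the MEK inhibitor at 30 h, the NDUFA1 window held 1 ETS motif and the NDUFB1 window 1 CCAAT box. RefSeq promoters were matched for 68 of the 80 nuclear subunit genes. Of these, 15 (22.1%) held the NRF1 motif, against 5.53% of all 27305 promoters, and 17 (25%) held the ETS motif, against 8.81%. The 27305 promoters include those of genes not tested here, and no set of genes at the level of the subunits was compared. CCAAT boxes were in 20 of the 68 (29.4%) and in 33.0% of all promoters, the CRE in 4 (5.88%) and in 1.77%, and the YY1 motif in 1 (1.47%) and in 0.641%. Among the subunits with a matched promoter, 5 of 29 that fell with the PI3K inhibitor at 30 h and 9 of 31 that were not called held the NRF1 motif. For the CCAAT box those counts were 9 of 29 and 7 of 31. Of the 5 that rose and had a matched promoter, 0 held the NRF1 motif and 3 the CCAAT box. These are matches of letters, not sites of binding.

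The other large falls with the PI3K inhibitor at 30 h were in complexes I, III and V. NDUFS6, a zinc-binding subunit of complex I, had 289 and 296.5 CPM with the PI3K inhibitor and 529 and 454 CPM with EGF alone (-0.74 ± 0.09, adjusted p = 2.37e-09). UQCR10, a small subunit of complex III, had 346.5 and 237 CPM against 586 and 370.3 CPM with EGF alone (-0.70 ± 0.09, adjusted p = 3.42e-09). In both genes each PI3K inhibitor value lay below both values with EGF alone. ATP5MF (-0.58), a membrane subunit of ATP synthase, and ATP5PF (-0.56) fell by similar amounts. NDUFA4, a subunit of complex IV despite its name, fell by 0.32 on the log2 scale.

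The rises with the PI3K inhibitor at 30 h were led by NDUFV3, a small subunit of the NADH-oxidising arm of complex I. It had 128 and 109 CPM with the PI3K inhibitor and 83.5 and 68.7 CPM with EGF alone (0.64 ± 0.10, adjusted p = 7.67e-07), and the conditions did not overlap. The other rises were ATP5MC2, COX6A1 (0.26), NDUFS4 (0.25), UQCRB (0.24) and ATP5PD (0.22), each higher in both libraries. COX6A1 is the form of its complex IV subunit that is expressed outside muscle, and NDUFS4 is needed for a stable complex I. Scaled by library totals, which put the median of all genes at -0.22, 58 subunits were called lower and 1 higher, and ATP5PD stood at -0.02. Relative to the median of all genes, the median of the subunits was -0.17 under either scaling, and without the block 6 were called lower and 1 higher. S and G2/M markers summed to 284 and 428 CPM with the PI3K inhibitor and 1418 and 1696 CPM with EGF alone, and their part in the result was not tested.

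Of the 13 mitochondrial-encoded genes 4 rose and 1 fell with the PI3K inhibitor at 30 h, with a median of 0.02, beside 19.7% of all genes called higher and 20.0% lower. Together they took 4.76% and 4.88% of UMIs with the PI3K inhibitor and 4.93% and 5.31% with EGF alone, a lower share in each library. The median cell held 554.5 and 576.5 of their UMIs with the PI3K inhibitor and 778 and 804.5 with EGF alone. MT-CYB had 6288 and 5770 CPM with the PI3K inhibitor and 4250 and 3822 CPM with EGF alone (0.58 ± 0.09, adjusted p = 7.41e-07). The complex I genes MT-ND2 (0.37), MT-ND1 (0.35) and MT-ND4 (0.25) were higher than with EGF alone too. MT-ND1 had 1318 and 978 CPM with the PI3K inhibitor and 990 and 797 CPM with EGF alone, against 1485 and 1216 CPM at 15 h of EGF. It thus stood below its level at 15 h, while MT-CYB, MT-ND2 and MT-ND4 stood above theirs in each library. MT-ND6, the one subunit transcribed from the light strand, had 54.1 and 30.4 CPM against 49.3 and 61.6 CPM with EGF alone. It was called lower (-0.48 ± 0.14, adjusted p = 0.00526), but its log2 difference was 0.13 in library 1 and -1.01 in library 2, so the fall is that of library 2. The labels used here do not say whether counting was by strand, so UMIs of MT-ND6 cannot be told apart from those of the RNA opposite it. Scaled by library totals 1 of the 13 was called higher and 6 lower, and without the block 0 were called. The ratio of mitochondrial-encoded to nuclear subunit UMIs, which no scaling alters, was 1.81 and 1.98 with the PI3K inhibitor and 1.38 and 1.68 with EGF alone, higher in each library and without overlap.

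**Figure D4:**
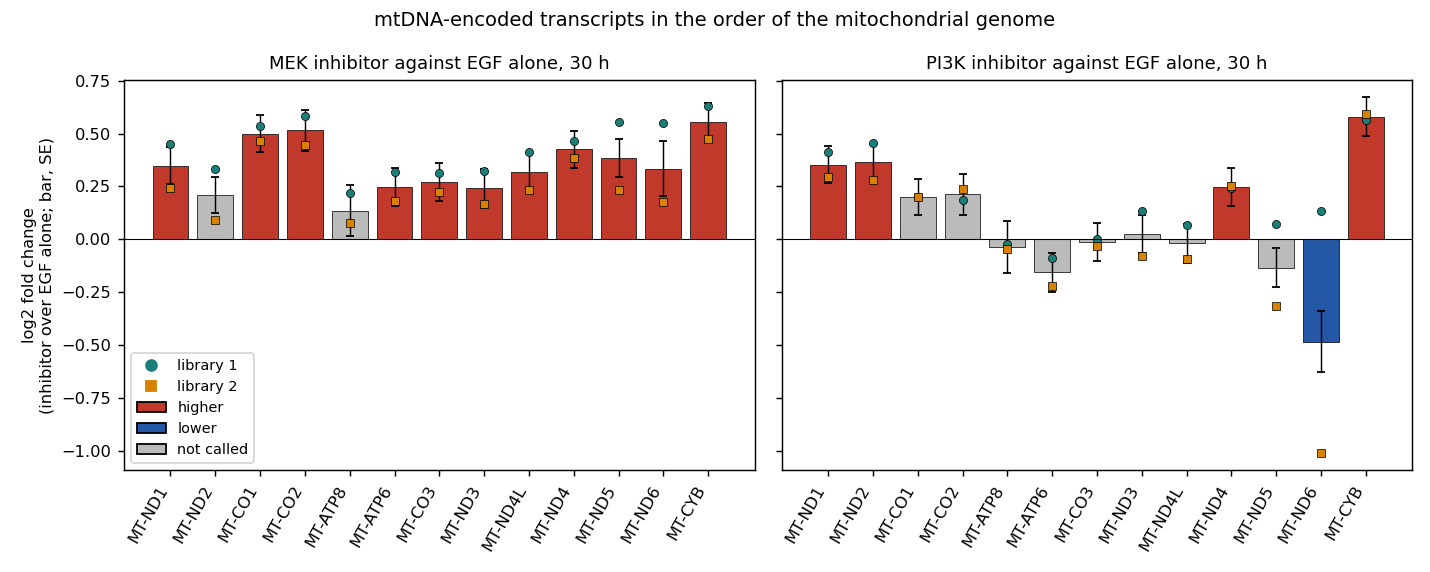
Log2 fold change at 30 h of the 13 mtDNA-encoded subunit genes in their order along the mitochondrial genome, for the MEK inhibitor (left) and the PI3K inhibitor (right) over EGF alone. Bars are the fitted values with their SE, circles library 1 and squares library 2; the MEK inhibitor bars are all above 0, and MT-ND6 with the PI3K inhibitor stands at 0.13 in library 1 and -1.01 in library 2.

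Both inhibitors were compared with the same sums of EGF alone, so their changes are not independent of each other, and the inhibitors were also set against each other. At 30 h, 70 of 77 nuclear subunits were higher with the MEK inhibitor than with the PI3K inhibitor and 1 was lower, with a median of 0.50. Of all genes 21.2% were called higher and 20.3% lower. Among the 1209 genes of at least 100 CPM 434 were called higher, against 65 of the 71 subunits above that level. UQCR10 led, with 755 and 530.4 CPM with the MEK inhibitor and 346.5 and 237 CPM with the PI3K inhibitor (1.15 ± 0.09, adjusted p = 3.58e-16). ATP5PF (0.99 ± 0.09) and ATP5MC1 (0.99 ± 0.09) came next. The single subunit that was lower was NDUFV3 (-0.77 ± 0.10, adjusted p = 6.60e-09). All 4 succinate dehydrogenase subunits were higher, by 0.29 for SDHB to 0.61 for SDHC. Of the mitochondrial-encoded genes 8 of 13 were higher and 0 lower, among them MT-ND5 (0.52) and MT-ND6 (0.82), while MT-CYB stood at -0.03 (adjusted p = 0.852). The log2 difference of MT-ND6 was 0.42 in library 1 and 1.19 in library 2, and that of MT-ND5 0.49 and 0.55, so their order differs between the libraries.

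At 20 h, after 5 h with an inhibitor, the differences were smaller. With the MEK inhibitor 10 of 77 nuclear subunits rose and 0 fell, with a median of 0.17, when 4.80% of all genes were called higher and 7.15% lower, and 74 of the 77 were above 0, as were 5725 of the 11147 genes tested. Among the 1209 genes of at least 100 CPM 79 were called higher, against 9 of the 71 subunits above that level. NDUFB5 had 173 and 154 CPM with the MEK inhibitor and 121 and 110.1 CPM with EGF alone (0.50 ± 0.11, adjusted p = 0.000939). NDUFA5 (0.41), SDHC (0.35), the core proteins UQCRC1 (0.34) and UQCRC2 (0.32) of complex III, and NDUFA8 (0.33) followed. Of the 13 mitochondrial-encoded genes 0 were called by edgeR or DESeq2 and 0 had an unadjusted p under 0.05. The count of nuclear subunits called higher in this comparison varied with the setting, from 0 without the block, 3 with library totals and 4 without the filter on low counts to 17 with DESeq2 and 27 with the 0 h and 15 h sums left out of the fit.

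With the PI3K inhibitor at 20 h, 4 subunits rose and 4 fell, with a median of 0.00, beside 11.4% of all genes called higher and 11.9% lower. The falls were UQCRFS1 (-0.30), the Rieske protein of complex III, UQCR10 (-0.29), ATP5MC1 (-0.26) and NDUFS6 (-0.25). The rises were NDUFB5 (0.34), ATP5MC2 (0.32), NDUFV3 (0.30) and COX6A1 (0.25). MT-CYB (0.34) and MT-ND4 (0.27) rose among the mitochondrial-encoded genes. Under scaling by library totals, which put the median of all genes at -0.14, 0 nuclear subunits were called higher and 24 lower. Of all tested genes 796 were called higher and 2178 lower under that scaling. The median of the subunits, relative to that of all genes, was -0.004 under either TMM or library totals.

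Set against each other at 20 h, 24 nuclear subunits were higher with the MEK inhibitor than with the PI3K inhibitor and 1 was lower. Of all genes 11.2% were called higher and 10.5% lower. Among the 1209 genes of at least 100 CPM 222 were called higher, against 23 of the 71 subunits above that level. NDUFA8 (0.60), NDUFS3 (0.50) and UQCR10 (0.49) differed most, and NDUFV3 was the gene that was lower (-0.36). No mitochondrial-encoded gene was called by edgeR or DESeq2 (0 of 13), although 1 was higher and 1 lower at an unadjusted p under 0.05.

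The change of each inhibitor effect between the times was tested by its own contrast. The MEK inhibitor effect was larger at 30 h than at 20 h for 2 nuclear subunits, COX6C (0.45 ± 0.13) and UQCRB (0.42 ± 0.13), and for MT-CYB (0.45 ± 0.13), where 2.90% of all genes were called higher and 2.63% lower. The PI3K inhibitor effect was lower at 30 h for 6 nuclear subunits, where 3.25% of all genes were called lower and 2.40% higher, with ATP5MC1 (-0.61 ± 0.13), NDUFS6 (-0.49 ± 0.13) and ATP5F1B (-0.42) the largest. ATP5F1B is the catalytic beta subunit of ATP synthase. No mitochondrial-encoded gene changed its PI3K inhibitor effect by edgeR (0 of 13, with 1 called higher by DESeq2, and 1 higher and 1 lower at an unadjusted p under 0.05). For the other 75 and 71 nuclear subunits no difference between the times was shown.

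After 15 h of EGF the subunits were lower than in unstimulated cells. Of 77 nuclear subunits 43 fell and 1 rose, with a median of -0.33, beside 13.9% of all genes called lower and 14.1% higher. Among genes of at least 100 CPM 27.0% were called lower, against 42 of the 71 subunits. All 11 tested subunits of complex IV fell, as did 16 of 37 of complex I, 1 of 4 of complex II, 6 of 8 of complex III and 9 of 17 of complex V. ATP5F1A, the alpha subunit of ATP synthase, had 238 and 204 CPM with EGF and 417.5 and 375 CPM in unstimulated cells (-0.83 ± 0.11, adjusted p = 4.98e-08). UQCRB (-0.82) and ATP5PO (-0.79) fell by similar amounts, and for all 3 genes the conditions did not overlap. NDUFV3 rose, with 105 and 100.6 CPM with EGF against 61.5 and 30.9 CPM in unstimulated cells (0.90 ± 0.18, adjusted p = 9.75e-05). Its 30.9 CPM in library 2 come from a sum of 213216 UMIs over 29 cells, so that value rests on few UMIs. NDUFB5, chosen after its values were seen, had a fitted fall of 0.84 on the log2 scale but 131 and 125 CPM with EGF against 266 and 123 CPM in unstimulated cells, so its fall rests on library 1.

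Of the mitochondrial-encoded genes 9 of 13 fell after 15 h of EGF, among them MT-CO3 (-0.51) and MT-CYB (-0.50). Of all genes 13.9% were called lower and 14.1% higher, and of those of at least 100 CPM 27.0% were called lower. The 13 genes took 5.26% and 6.07% of UMIs with EGF and 6.67% and 6.88% in unstimulated cells. The median cell, however, held 626.5 and 613.5 of their UMIs with EGF and 523 and 464 without, more in each library. Without the cells above 8% mitochondrial-encoded UMIs, which were 2.25% and 26.6% of cells at 15 h and 16% and 48.3% of unstimulated cells, 2 of the 13 were called lower, and 32 nuclear subunits were lower and 3 higher. Scaled by library totals, which put the median of all genes at 0.21, 23 nuclear subunits were called lower and 7 higher. The median cell had 12164 and 8400 UMIs at 15 h of EGF and 7975 and 7024 UMIs when unstimulated, and held 353 and 237.5 nuclear subunit UMIs with EGF and 265 and 208 without.

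Under EGF alone later changes were few. Between 15 h and 20 h NDUFS3, a core subunit of complex I, rose (0.36 ± 0.11, adjusted p = 0.0462), where 3.44% of all genes were called higher and 1.65% lower. No other nuclear subunit was called by edgeR, and DESeq2 called 0, while 11 were higher at an unadjusted p under 0.05. Of the 13 mitochondrial-encoded genes 0 were called by edgeR or DESeq2, with 2 lower at an unadjusted p under 0.05. Between 20 h and 30 h, 6 nuclear subunits rose and 0 fell, where 4.51% of all genes were called higher, and NDUFA5 (0.38), SDHC (0.36) and NDUFA2 (0.36) were the largest. MT-ND1 fell (-0.38 ± 0.09, adjusted p = 0.00227) as the single mitochondrial-encoded gene called, where 3.29% of all genes were called lower.

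Of the 10 assembly factors and regulators with matching symbols, 1 rose and 3 fell with the MEK inhibitor at 30 h, beside 18.9% of all genes called higher and 19.0% lower. In PI3K inhibitor cells at 30 h 1 rose and 4 fell, beside 19.7% and 20.0% of all genes. The counts rest on 10 genes, and no difference from those shares or from the subunits was tested. NDUFAF4, a complex I assembly factor, had 62.2 and 57.2 CPM with the MEK inhibitor at 30 h and 104 and 93.2 CPM with EGF alone (-0.71 ± 0.10, adjusted p = 8.17e-08). It fell with both inhibitors at both times, by 0.73 and 0.61 on the log2 scale with the MEK and the PI3K inhibitor at 20 h and by 0.45 with the PI3K inhibitor at 30 h. NDUFAF2, a chaperone of late complex I assembly, had 108 and 90.4 CPM with the MEK inhibitor at 30 h and 188 and 137 CPM with EGF alone (-0.69 ± 0.09), and NDUFAF6 fell as well (-0.76 ± 0.13). NDUFAF5, which modifies the core subunit NDUFS7, had 23.6 and 22.1 CPM with the PI3K inhibitor at 30 h and 44.3 and 41.7 CPM with EGF alone (-0.91 ± 0.14, adjusted p = 2.70e-07). After 15 h of EGF NDUFAF2 rose, with 258 and 178.5 CPM with EGF against 109 and 97.0 CPM in unstimulated cells (1.17 ± 0.14, adjusted p = 4.81e-09). With the MEK inhibitor at 30 h NDUFAF5 stood at -0.08 (adjusted p = 0.627).

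ATP5IF1, the inhibitor that blocks ATP hydrolysis by ATP synthase, rose with the MEK inhibitor. It had 634 and 471 CPM at 30 h with the MEK inhibitor and 382 and 271 CPM with EGF alone (0.76 ± 0.09, adjusted p = 2.07e-10). At 20 h it rose by 0.34 ± 0.09, and the effect at 30 h was larger by 0.42 ± 0.12 (adjusted p = 0.0305). With the PI3K inhibitor at 30 h it had 321 and 267 CPM and was not called (-0.13, adjusted p = 0.225). COX7A2L, a factor in the joining of complexes III and IV, was the factor that rose with the PI3K inhibitor at 30 h (0.31 ± 0.09, adjusted p = 0.00418).

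The remaining members were low or gave few calls. COX6B2, COX8C, NDUFA4L2, NDUFB2-AS1, NDUFC2-KCTD14 and NDUFV2-AS1 had 2 to 73 UMIs over all sums and were not tested, the first 3 of them being nuclear subunit genes. Mean levels of the tested nuclear subunits ran from 17.6 CPM for NDUFA7 to 1226 CPM for COX4I1, and those of the mitochondrial-encoded genes from 42.0 CPM for MT-ATP8 to 18510 CPM for MT-CO2, with no allowance for transcript length. The paralogues UQCRHL and ATP5MGL were not called in the 4 inhibitor comparisons with EGF alone, and UQCRHL is so close to UQCRH that their reads may be shared. ATP5S, a coupling factor of ATP synthase that was named after its values were seen, had 36.2 and 31.3 CPM with the PI3K inhibitor at 30 h and 23.4 and 18.2 CPM with EGF alone (0.71 ± 0.14, adjusted p = 7.20e-05).

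Other genes of mitochondrial function were counted from lists that hold no member. With the MEK inhibitor at 30 h, when the subunits were higher, 3 of 77 genes of the mitochondrial ribosome rose and 30 fell (median log2 fold change -0.20), beside 18.9% of all genes called higher and 19.0% lower, and 0 of 36 genes of mitochondrial gene expression rose and 16 fell (-0.28). Of 18 genes of the TCA cycle and pyruvate dehydrogenase 2 rose and 1 fell (0.16), and of 51 further assembly factors and carriers 10 rose and 10 fell (0.02). In PI3K inhibitor cells at 30 h, when 19.7% of all genes were called higher and 20.0% lower, 3 mitochondrial ribosome genes rose and 34 fell (-0.21). In the same comparison 1 gene of mitochondrial gene expression rose and 15 fell (-0.26), 2 TCA cycle genes rose and 9 fell (-0.25), and 5 further assembly factors and carriers rose and 16 fell (-0.12). The mitochondrial ribosome and gene expression lists thus had mainly lower calls with either inhibitor, while the nuclear subunits had 58 higher calls with the MEK inhibitor and 36 lower calls with the PI3K inhibitor. After 15 h of EGF the mitochondrial ribosome list had 15 of 77 genes higher and 3 lower than in unstimulated cells, beside 14.1% of all genes called higher and 13.9% lower.

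**Figure D5:**
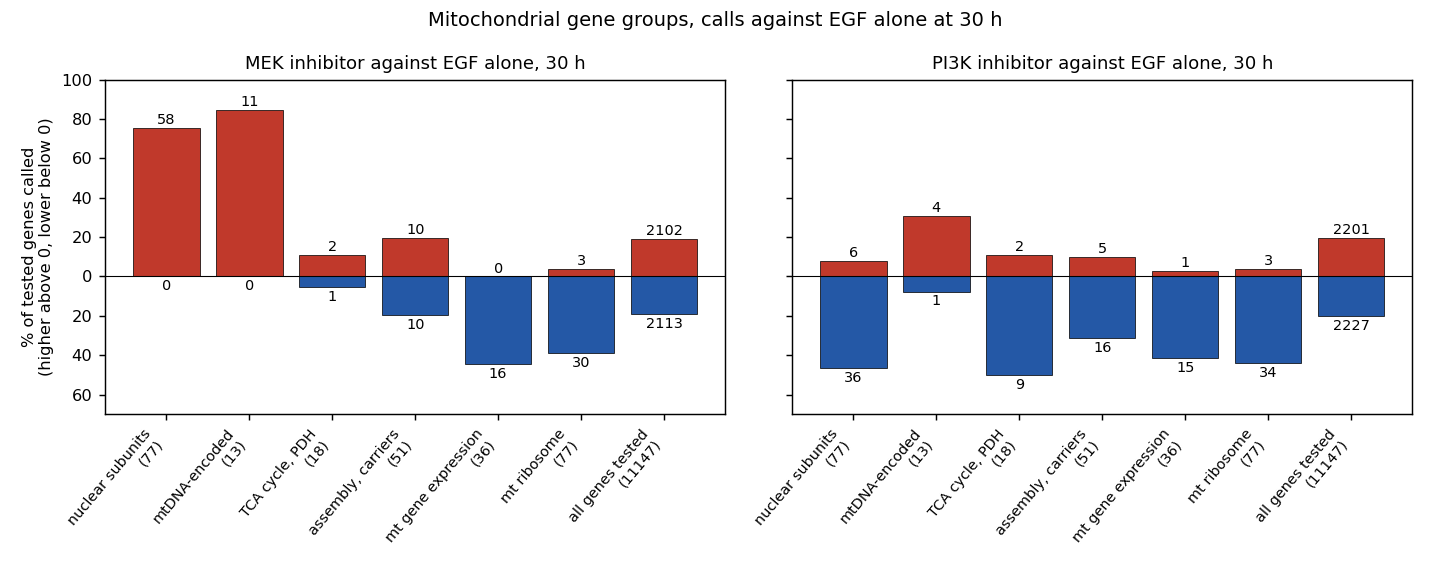
Percent of the tested genes of each list called higher (red, above 0) or lower (blue, below 0) at 30 h with the MEK inhibitor (left) and the PI3K inhibitor (right) over EGF alone, with the number called at each bar and the number tested under each name. Nuclear subunits have 58 higher and 0 lower calls with the MEK inhibitor, where the mitochondrial ribosome has 3 higher and 30 lower.

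TFAM, which packages mitochondrial DNA and starts its transcription, had 46.4 and 37.2 CPM with the MEK inhibitor at 30 h and 79.3 and 72.4 CPM with EGF alone (-0.88 ± 0.11, adjusted p = 4.47e-09). With the PI3K inhibitor at 30 h it had 49.1 and 44.2 CPM (-0.70 ± 0.11, adjusted p = 7.17e-07). It also fell at 20 h, by 0.43 and 0.77 on the log2 scale with the MEK and the PI3K inhibitor, while 11 of 13 mitochondrial-encoded genes rose with the MEK inhibitor at 30 h. Among regulators of the subunit genes, PPRC1, a growth-responsive coactivator, fell with the MEK inhibitor at 30 h (5.89 against 12.4 CPM on average, -1.10 ± 0.23), and MYC, named after its values were seen, fell too (92.9 against 198 CPM, -1.08 ± 0.12). With the PI3K inhibitor at 30 h MYC rose to 302.5 CPM on average, against 198 CPM with EGF alone (0.61 ± 0.11), and ESRRA rose (0.33 ± 0.10). With the MEK inhibitor at 20 h ESRRA was lower, at 99.6 and 95.5 CPM against 154 and 158 CPM with EGF alone. At 30 h it had 168 and 150 CPM with the MEK inhibitor and 130 and 152 CPM with EGF alone. PPARGC1B fell with the PI3K inhibitor at both times, to 6.63 against 11.7 CPM at 30 h (-0.83 ± 0.23). NRF1, at 1.55 against 4.63 CPM, was called lower (-1.52 ± 0.43) at a level of few UMIs. GABPA was not called with either inhibitor at either time.

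Cytochrome c (CYCS), which carries electrons between complexes III and IV and was named after its values were seen, had a mean of 349.9 CPM with the PI3K inhibitor at 30 h and 697 CPM with EGF alone (-0.99 ± 0.09, adjusted p = 2.86e-13). With the MEK inhibitor at 30 h it had 628 CPM (-0.15, adjusted p = 0.176).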

How the data were processed

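Single-cell 3' libraries of MCF10A cells were processed by the authors with Cell Ranger 3.0.2 against GRCh38 and with Seurat, per the submitters' processing notes, for which the notes name no version. The deposited tables hold UMI counts per gene and cell, not normalized, with the sample tag of each cell in the authors' annotation. Of 8641 and 6161 barcodes in the annotation of libraries 1 and 2, 4848 (56.1%) and 2478 (40.2%) were marked doublets and 616 and 262 negative; the count tables hold 2616 and 2221 cells, all used, with no doublet caller rerun. The libraries shared 0 barcodes, and every cell had at least 1502 genes and under 10% mitochondrial-encoded UMIs (at most 9.997%). Cells held 3141 to 31090 UMIs.

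Counts were summed per library and condition into 16 sums. Sums were tested with edgeR 4.0.16 (R 4.3.3, limma 3.58.1; filterByExpr, TMM, quasi-likelihood F test, 8 conditions, library as a block), over 11147 genes with Benjamini-Hochberg adjustment. The standard error is the log2 fold change divided by the square root of F. Differences per library use a prior count of 2. The block follows from the pooling of each replicate in 1 library: deviations from the condition means correlated within libraries in all 28 pairs of conditions (median r 0.588, lowest 0.281, over 4702 genes). The fit had 7 residual degrees of freedom among sums, and the spread shared across genes added a median of 43.3 prior degrees of freedom. Small p-values thus rest largely on that shared spread, not on the 2 sums of a condition. An exact permutation test of 2 against 2 cannot go below p = 0.333. The script was tested on simulated data.

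The alternatives were RLE scaling, library totals, scaling without mitochondrial-encoded genes, no filter, no block, no cells above 20000 UMIs or above 8% mitochondrial-encoded UMIs, the 20 h and 30 h sums alone, DESeq2 1.42.0, and each library alone. Genes were named by rule: in inhibitor comparisons with EGF alone the 6 largest called rises and falls among nuclear subunits with 1 sign in both libraries and at least 20 CPM, 3 among assembly factors, and 3 in other comparisons, plus the mitochondrial-encoded genes, the SDH subunits, isoform families, ATP5IF1 and listed regulators. The members and lists were chosen with earlier results of these data known. Reads of MT- genes may be shared with nuclear copies, MT-ATP8 overlaps MT-ATP6 and MT-ND4L overlaps MT-ND4. Intervals and tests cover these 2 libraries only.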

Additional observations from a re-analysis of the deposited data

Results flagged for a closer look

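For 13 genes the effect of an inhibitor over EGF alone differed between 30 h and 20 h, by the contrast of both effects in edgeR's quasi-likelihood test, adjusted over all genes; each value is the log2 effect at 30 h minus that at 20 h. For the MEK inhibitor it was higher at 30 h for ATP5IF1 (0.42, adjusted p = 0.0305), UQCRB (0.42, adjusted p = 0.0400), COX6C (0.45, adjusted p = 0.0280) and MT-CYB (0.45, adjusted p = 0.0253). It was lower at 30 h for the assembly factors NDUFAF2 (-0.67, adjusted p = 0.000573) and NDUFAF6 (-0.77, adjusted p = 0.00678). For the PI3K inhibitor it was lower at 30 h for ATP5MC1 (-0.61, adjusted p = 0.00121), NDUFS6 (-0.49, adjusted p = 0.0125), ATP5F1B (-0.42, adjusted p = 0.0315), UQCR10 (-0.41, adjusted p = 0.0384), COX7B (-0.41, adjusted p = 0.0364) and ATP5MF (-0.40, adjusted p = 0.0384). It was higher at 30 h for ATP5S (0.86, adjusted p = 0.0117).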

How the results depend on the processing

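Counts of called genes are given against those of the report, in the order MEK at 20 h, PI3K at 20 h, MEK at 30 h and PI3K at 30 h (each over EGF alone), EGF 15 h over unstimulated cells, EGF 20 h over 15 h, EGF 30 h over 20 h, the MEK and PI3K effects at 30 h minus 20 h, and MEK over PI3K at 20 h and 30 h. For nuclear subunits the report's counts were 10, 8, 58, 42, 44, 1, 6, 2, 6, 25 and 71. With no replicate block they were 0, 0, 8, 7, 10, 0, 0, 0, 0, 0 and 35. Library totals gave 3 and 24 for the inhibitors at 20 h, 4 and 11 for the later EGF times, 1 and 20 for the changes of effect, and 44 for MEK over PI3K at 20 h. No filter gave 4 for MEK at 20 h, 3 for EGF 30 h over 20 h, and 1 and 2 for the changes of effect. The 20 h and 30 h sums alone gave 27 and 15 at 20 h, 11 for EGF 30 h over 20 h, and 4 and 12 for the changes of effect. DESeq2 gave 17 for MEK at 20 h, 0 for EGF 20 h over 15 h, and 7 and 12 for the changes of effect. Without cells above 8% mitochondrial-encoded UMIs, EGF 20 h over 15 h gave 0 and the change of the MEK effect 1; without cells above 20000 UMIs, EGF 30 h over 20 h gave 3 and the changes of effect 1 and 3.

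For mitochondrial-encoded genes the report's counts were 0, 2, 11, 5, 9, 0, 1, 1, 0, 0 and 8. With no replicate block 0 remained for each comparison except MEK over PI3K at 30 h, with 2. Library totals gave 5 for MEK at 30 h, 3 for EGF 30 h over 20 h, 2 and 1 for the changes of effect, and 1 for MEK over PI3K at 20 h. The 20 h and 30 h sums alone gave 1 and 7 at 20 h, 8 for PI3K at 30 h, 3 for EGF 30 h over 20 h, 5 and 2 for the changes of effect, and 1 for MEK over PI3K at 20 h. No filter gave 1 for PI3K at 20 h, 2 for the change of the MEK effect and 1 for MEK over PI3K at 20 h. DESeq2 gave 4 for PI3K at 20 h, and 3 and 1 for the changes of effect, and RLE scaling gave 3 for the change of the MEK effect. Without cells above 8% mitochondrial-encoded UMIs, EGF 15 h gave 2 and the change of the MEK effect 0, which was also 0 without cells above 20000 UMIs. For the other mitochondrial lists, which had 16, 50, 74 and 90 calls in the inhibitor comparisons with EGF alone, no replicate block gave 4, 13, 23 and 44, and library totals gave 79 for PI3K at 20 h.

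For the ratio of mitochondrial-encoded to nuclear subunit UMIs, MEK inhibitor, 30 h, the mean of 1.56 became 1.585 without cells above 20000 UMIs and 1.51 without cells above 8%. For the ratio of mitochondrial-encoded to nuclear subunit UMIs, no EGF, 0 h, the mean of 2.13 became 1.78 without cells above 8%. Signs turned for 4 genes: with library totals ATP5PD (-0.017) and MT-ND3 (-0.21) with the PI3K inhibitor at 30 h, without replicate 2 MT-ND6 in that comparison (0.13, and -1.01 without replicate 1), and without replicate 1 NDUFB5 after 15 h of EGF (0.015, and -1.02 without replicate 2). The cause was not tested. Of 455 values of single genes, DESeq2 kept the call of 424, library totals of 385 and no block of 330.

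Values are shares of RNA from 2 libraries, so fewer transcripts of one gene and more of the others cannot be told apart, and UMI totals per cell differed between conditions. Unstimulated cells of library 2 number 29, and depth limits genes of a few CPM. Leaving out a library leaves 1 sum per condition and no test.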
